A study of Sparus aurata with 9 samples.

Results

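In cultured muscle cells of Sparus aurata, the gilthead sea bream, the miR-26 family comprised 14 of the 862 entries in the table of mature microRNAs (miRNAs), and these 14 entries held 13 distinct sequences of 830. Its members were all entries whose miRNA number was exactly 26, whatever their letter, arm or suffix, a rule that uses names and no measured value. Names are written without the prefix of the fish species whose precursor each sequence matched. Of the 13 sequences, 7 came from the 5p arm of the hairpin and 6 resembled its 3p arm. Small RNA was sequenced from primary myoblasts of fast skeletal muscle, taken from fingerlings and kept in culture to day 8, in 3 groups of 3 libraries. AA cells were deprived of amino acids for 12 h and spent the next 24 h in DMEM, a culture medium that holds amino acids. No serum is listed for this treatment medium. IGF1 cells had the same 12 h and a further 24 h in amino acid-free medium with sea bream insulin-like growth factor 1, a hormone that promotes muscle growth, and its carrier bovine serum albumin. CTR cells stayed in amino acid-free medium, made of Earle's salts, vitamins and glucose, for all 36 h. All 3 groups thus shared the first 12 h without amino acids, and AA and IGF1 cells differed from CTR cells in other components of the medium as well.

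A miRNA is cut from a hairpin whose arms give a 5p and a 3p strand. One of them, the guide, stays in the silencing complex and pairs with messenger RNAs mainly through its seed, the bases from position 2 to 8, while most copies of the other strand are degraded. In vertebrates the miR-26 guide is the 5p strand, and the hairpins lie in introns of genes of the CTDSP family, which encode phosphatases of RNA polymerase II. In mouse, miR-26a rises as myoblasts differentiate and represses Ezh2, a histone methyltransferase that keeps muscle genes silent, and the signal transducers Smad1 and Smad4.

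The sequences below are those that the family's reads were assigned to, as deposited with T for U, and capitals mark the seed. Positions are counted from 1 at the 5′ end. The first set holds the 5p strands, which decide how many different seeds the guide pool contained.
miR-26a: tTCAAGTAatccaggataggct
miR-26b: tTCAAGTAatccaggataggtt
miR-26a_R+1_1ss21CT: tTCAAGTAatccaggataggtta
miR-26b_R+1_1ss22TA: tTCAAGTAatccaggataggtaa
miR-26a-5p_L+1: cTTCAAGTaatccaggataggct
miR-26a-5p_L+1R-1_1: cTTCAAGTaatccaggataggc
miR-26a-5p_L+1R-1_2: gTTCAAGTaatccaggataggc

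From miR-26a to miR-26b the single change was C21T, outside the seed, so both shared 1 seed with both R+1 forms. No other entry of the table carried that seed. In the suffixes, L and R give bases gained or lost at the 5′ and the 3′ end relative to the matched precursor's mature miRNA, and ss gives substitutions. The form miR-26a_R+1_1ss21CT was named after miR-26a, but it differed from miR-26b at 0 of 22 bases and had 1 further base at its 3′ end. It is therefore described here as the extended form of miR-26b by sequence. The form miR-26b_R+1_1ss22TA differed from miR-26b by T22A and was likewise 1 base longer. The 3 L+1 forms began 1 base earlier, which moved their seed window by 1 base and gave them a seed of their own. One of these sequences was listed under both miR-26a-5p_L+1 and miR-26a_L+1, with equal values, and was counted once.

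The second set holds the 3p strands. Within the family, each of these 6 sequences had a seed of its own, unlike the 5p strands. Outside it, 1 entry of the table carried the seed of miR-26b-3p_2ss8TC10CG.
miR-26a-3-3p_1ss4GA: cCTATTCTtgattacttgtttc
miR-26b-3p_2ss8TC10CG: cCTATTCCggatgacttggttc
mir-26a-4-p3: cCTATGCTtgattacttgcact
miR-26a-2-3p: cCTATTCAtgattacttgcact
miR-26a-3p: cCTATTCGggatgacttggttc
miR-26d_1ss21CT: cCTATCCTggattacttgaatc

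The closest pair was miR-26b-3p_2ss8TC10CG and miR-26a-3p, set apart only by C8G in the last base of the seed. From miR-26a-2-3p to mir-26a-4-p3 the changes were T6G and A8T, both in the seed. The most abundant 3p sequence, miR-26a-3-3p_1ss4GA, differed from each of the others at 4 or 5 of 22 bases. The entry miR-26d_1ss21CT carries no arm in its name, and its sequence was closer to the 3p strands than to any 5p strand. Which 3p sequence came from the hairpin of which 5p sequence was not tested, since no genome was used.

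One more entry, the predicted candidate PC-3p-17115_121, consisted of miR-26b-3p_2ss8TC10CG plus 1 base and lies outside the family by name. It had 17.8, 9.99 and 13.9 normalized reads in AA libraries, 15.8, 9.23 and 6.96 in IGF1 libraries and 7.25, 6.92 and 28.8 in CTR libraries.

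Values are normalized reads per library as the authors deposited them. They are not divided by length, which was 22 or 23 nt for every member. Totals per library ran between 8367582 and 9019641 normalized reads. Inferred depth, from the value of 1 read, was highest in AA, between 9766620 and 11214788 reads, against between 7241678 and 9534840 in IGF1 and between 7045311 and 8010694 in CTR. The muscle marker miRNAs (miR-1, miR-133, miR-206 and miR-499, 8 sequences, none at 0 throughout) summed to between 8.15% and 9.48% of the table in AA, between 5.90% and 7.46% in IGF1 and between 5.85% and 8.11% in CTR, so that the markers of the labelled cell type were present. The fibroblast and smooth muscle markers (miR-143, miR-145 and miR-199) summed to between 3.09% and 3.29% in AA, between 3.38% and 3.97% in IGF1 and between 3.31% and 3.91% in CTR. The endothelial marker miR-126 summed to between 1.01% and 1.22% over all libraries, and blood, epithelial, neural and hepatic or intestinal markers each stayed at or under 0.0406%. CTR replicate 1, the shallowest library, stood apart from the other CTR libraries in several of the values below, which are given with and without it where it changed a call. In such bulk samples, fewer cells of a type and less RNA per cell cannot be told apart.

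The guide strands miR-26a and miR-26b held nearly all reads of the family. miR-26a ranked the 7th most abundant of the 830 distinct sequences, with a mean of 98350 normalized reads over the 9 libraries, and miR-26b ranked 55th with a mean of 19490. The family as a whole took 1.29% ± 0.124 of the table's reads in AA, 1.41% ± 0.0731 in IGF1 and 1.42% ± 0.1005 in CTR (SD, n = 3 each). Within the family, miR-26a took 81.6% ± 1.02 in AA, 81.7% ± 1.32 in IGF1 and 84.5% ± 3.32 in CTR. Between libraries miR-26a was 4.30 to 7.04 times as abundant as miR-26b, with a mean of 5.14.

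**Figure D1:**
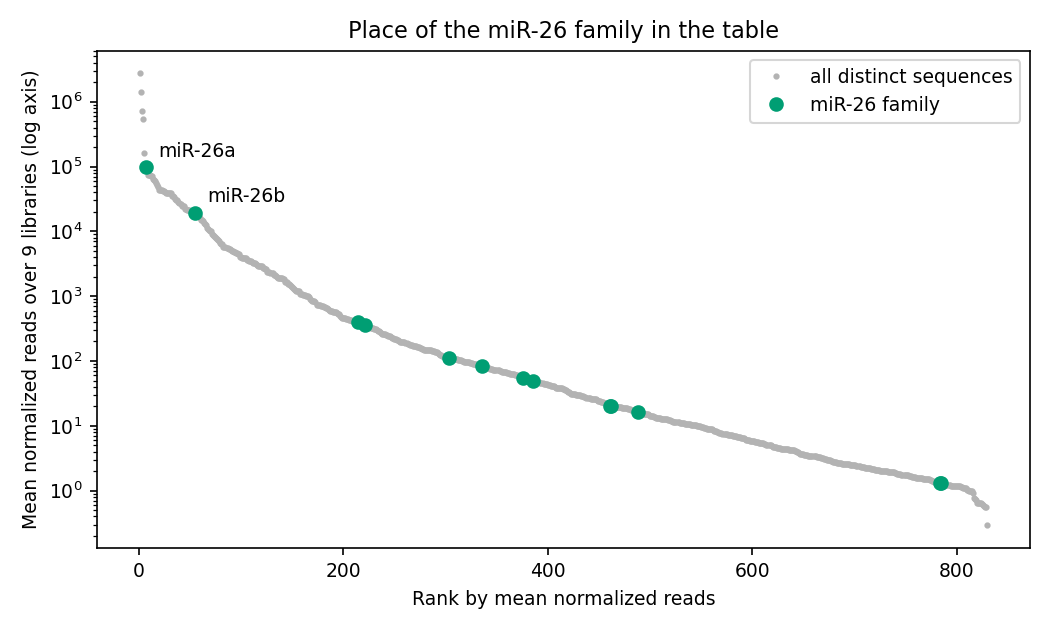
Mean normalized reads over the 9 libraries (log axis) against rank for the 830 distinct sequences of the table, with the 13 miR-26 sequences as larger points. miR-26a at rank 7 and miR-26b at rank 55 stand far above the other members, of which the next ranked 215th.

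miR-26a had 94828, 96362 and 85587 normalized reads in AA libraries, 91076, 110354 and 95172 in IGF1 libraries and 89412, 108302 and 114060 in CTR libraries. CTR replicate 1 lay among the AA and IGF1 libraries, the other CTR libraries were above every AA library, and the ranges of all 3 groups overlapped. Its mean was 92259 ± 5829 in AA, 98868 ± 10156 in IGF1 and 103924 ± 12894 in CTR (SD, n = 3 each). In limma, a linear model fitted to all entries tested with p-values adjusted by Benjamini-Hochberg, the log2 fold change of AA against CTR was -0.17 (SE 0.13, 95% interval -0.45 to 0.12, adjusted p = 0.519). For IGF1 against CTR it was -0.07 (95% interval -0.35 to 0.22, limma adjusted p = 0.858), and for AA against IGF1 -0.10 (95% interval -0.38 to 0.19, limma adjusted p = 0.996). None of these differences passed the test, and the intervals leave room for a difference of up to 0.45 on the log2 scale.

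miR-26b, which shares the seed of miR-26a, had 21217, 21515 and 16850 normalized reads in AA libraries, 19443, 21422 and 22152 in IGF1 libraries and 20235, 15386 and 17192 in CTR libraries. Again the groups overlapped, with CTR replicate 1 the highest CTR library here and the lowest for miR-26a. The log2 fold change of miR-26b was 0.17 for AA against CTR (95% interval -0.16 to 0.51, limma adjusted p = 0.559) and 0.26 for IGF1 against CTR (95% interval -0.07 to 0.60, limma adjusted p = 0.568). For AA against IGF1 it was -0.09 (95% interval -0.42 to 0.25, limma adjusted p = 0.996). No difference passed the test.

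Both guides varied less between libraries than most sequences tested, while among abundant sequences miR-26b was closer to the median. The SD of the log2 value over the 9 libraries was 0.146 for miR-26a and 0.188 for miR-26b, while the median over the 565 distinct sequences tested was 0.395. A smaller SD than that of miR-26a was found for 25 of the 565. Since abundant sequences vary less in general, the 71 sequences with a mean over 10000 normalized reads are the closer comparison, with a median SD of 0.214. Of these, 10 varied less than miR-26a and 26 varied less than miR-26b.

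**Figure D2:**
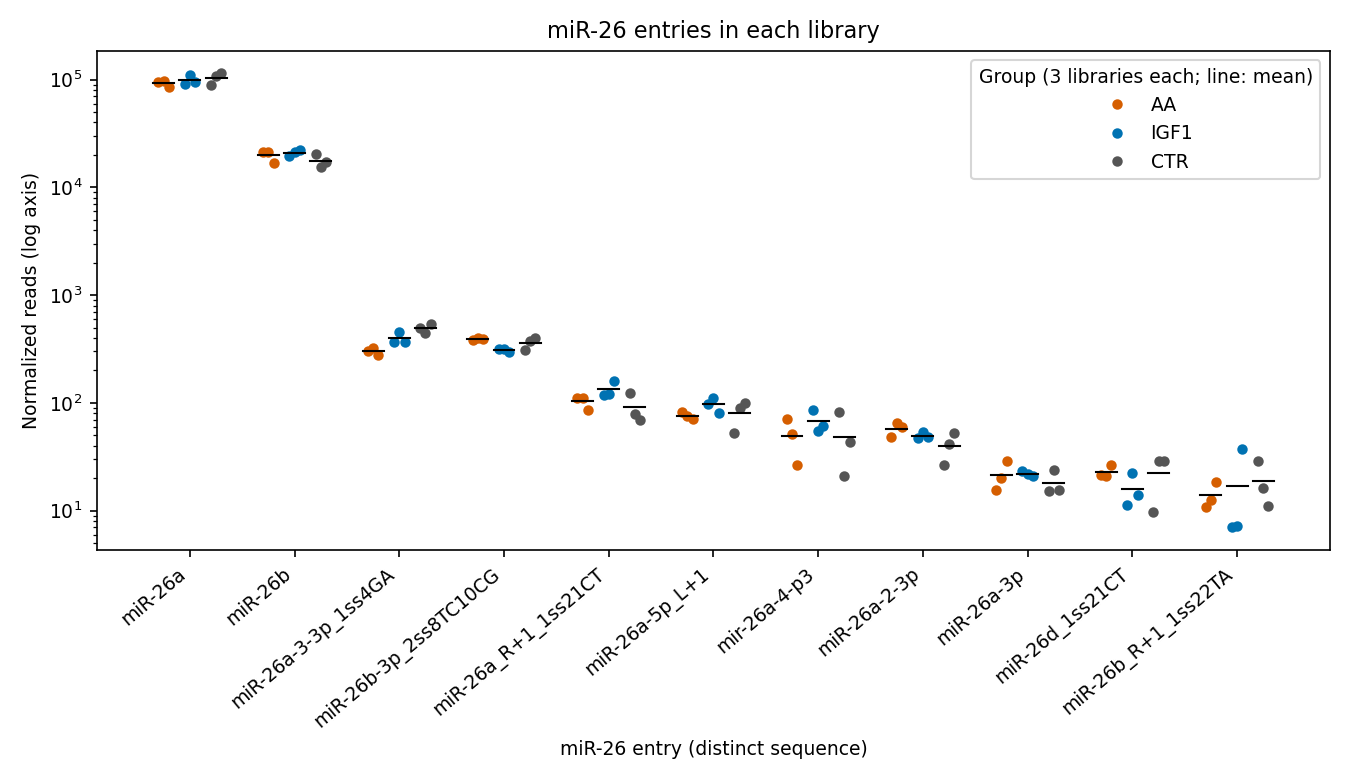
Normalized reads (log axis) of the 11 distinct miR-26 sequences tested, 1 point for each library, with AA, IGF1 and CTR side by side and a line at each group's mean. miR-26a and miR-26b form flat rows, the points of miR-26a-3-3p_1ss4GA lie lowest in AA (279 to 323) against 446 to 542 in CTR, and the entries under 100 normalized reads scatter more widely.

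The 3p strand miR-26a-3-3p_1ss4GA, which would be the passenger strand of a miR-26a hairpin, was the member with the largest log2 difference between AA and CTR. It had 304, 323 and 279 normalized reads in AA libraries, 369, 459 and 365 in IGF1 libraries and 493, 446 and 542 in CTR libraries. Every AA library was below every IGF1 and every CTR library, while IGF1 and CTR overlapped. The entry's reads were whole in all libraries, between 302 and 489 inferred reads, within a tolerance of 0.02 reads. Its means were 302 ± 22.1 in AA, 398 ± 53.2 in IGF1 and 494 ± 47.6 in CTR (SD, n = 3 each).

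For AA against CTR the log2 fold change of miR-26a-3-3p_1ss4GA was -0.70 (SE 0.16, 95% interval -1.07 to -0.34), with an unadjusted p of 0.00163 and an adjusted p of 0.0575 in limma. The difference did not pass the threshold of 0.05 after adjustment. It did pass when CTR replicate 1 was left out (limma adjusted p = 0.0428), with the log2 fold change still at -0.70. In that fit 40 of all entries passed, against 14 with all libraries. Without CTR replicate 2 the limma adjusted p was 0.0899, and without CTR replicate 3 it was 0.150. Over all 21 alternatives run the limma adjusted p lay between 0.00599 and 0.169. For IGF1 against CTR its log2 fold change was -0.31 (95% interval -0.68 to 0.05, limma adjusted p = 0.538). For AA against IGF1 it was -0.39 (95% interval -0.76 to -0.03, limma adjusted p = 0.553). The summed muscle markers and the inferred depth were also higher in every AA library than in every other library, as given above. The summed fibroblast and smooth muscle markers (7 sequences) were lower in every AA library than in every other library. The epithelial markers (8 sequences, 5 of them tested) summed to between 0.00487% and 0.00563% in AA and between 0.00485% and 0.00766% in IGF1. In CTR they summed to between 0.00769% and 0.00950%. Their median log2 fold change was -0.30 for AA against CTR and -0.73 for IGF1 against CTR, where the medians over all entries were 0.08 and 0.05. In AA against CTR 1 of the 5, miR-203a_L+1, fell (log2 fold change -1.39, limma adjusted p = 0.00994), where 2.36% of all entries tested passed. Of the 8 muscle marker sequences, 8 were higher in AA than in CTR, against 345 of all 594 entries tested. In limma 1 of the 8 passed, the guide of miR-1. The median log2 fold change of the 8 was 0.65, against 0.08 over all entries. No sequence of these lists was at 0 in all libraries, and their part in the difference of miR-26a-3-3p_1ss4GA was not tested.

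The other abundant 3p strand, miR-26b-3p_2ss8TC10CG, had 384, 400 and 388 normalized reads in AA libraries, 316, 319 and 297 in IGF1 libraries and 313, 373 and 403 in CTR libraries. AA lay above IGF1 in every library, and CTR spanned both groups. The log2 fold change was 0.11 for AA against CTR (95% interval -0.23 to 0.46, limma adjusted p = 0.718), -0.22 for IGF1 against CTR (95% interval -0.56 to 0.13, limma adjusted p = 0.631) and 0.33 for AA against IGF1 (95% interval -0.01 to 0.67, limma adjusted p = 0.588). None passed the test. The AA against CTR and IGF1 against CTR comparisons share the CTR libraries, here and throughout.

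The order of both abundant 3p strands differed between groups, a pattern noticed after the values were seen and given without a test. miR-26a-3-3p_1ss4GA over miR-26b-3p_2ss8TC10CG was 0.793, 0.807 and 0.719 in AA libraries, 1.17, 1.44 and 1.23 in IGF1 libraries and 1.58, 1.20 and 1.34 in CTR libraries. miR-26a-3-3p_1ss4GA was thus the more abundant in 0 of 3 AA, 3 of 3 IGF1 and 3 of 3 CTR libraries. The mean ratio was 0.773 ± 0.0471 in AA, 1.28 ± 0.142 in IGF1 and 1.37 ± 0.190 in CTR (SD, n = 3 each).

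**Figure D3:**
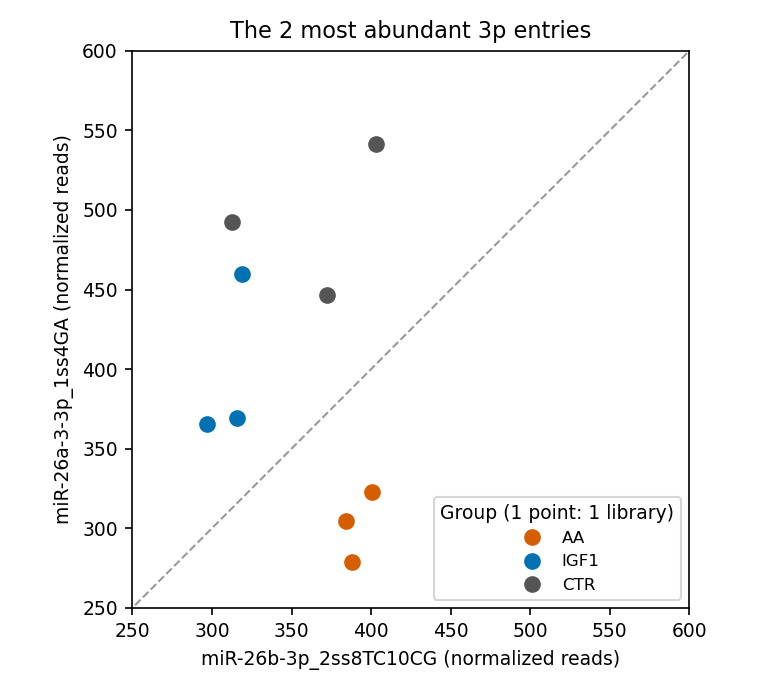
Normalized reads of miR-26a-3-3p_1ss4GA (vertical axis) against miR-26b-3p_2ss8TC10CG (horizontal axis), 1 point for each library, with a dashed line where both are equal and axes that do not start at 0. The 3 AA libraries lie below the line, at ratios between 0.719 and 0.807, and the 3 IGF1 and 3 CTR libraries lie above it.

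Ratios between members within a library do not depend on how libraries were scaled. For 4 such ratios, differences among the 3 groups were tested by an exact permutation test over the 9 libraries (1680 arrangements, smallest possible p 0.00357), with adjustment over the 4 ratios. The test asks whether the 3 groups differ at all and does not say which pair does.

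miR-26a-3-3p_1ss4GA relative to miR-26a was the 1 ratio that passed with all 9 libraries treated as independent. It was 0.321%, 0.335% and 0.326% in AA libraries, 0.406%, 0.416% and 0.384% in IGF1 libraries and 0.551%, 0.412% and 0.475% in CTR libraries. All AA libraries were below all others, and the lowest CTR library fell within the IGF1 range. The mean was 0.327% ± 0.00722 in AA, 0.402% ± 0.0166 in IGF1 and 0.479% ± 0.0695 in CTR (SD, n = 3 each, exact permutation p = 0.00714, adjusted p = 0.0286). The call was lost without AA replicate 1 or without AA replicate 3 (exact permutation p = 0.0143, adjusted p = 0.0571 in each case), and leaving out any other single library gave an adjusted p from the exact permutation test between 0.0143 and 0.0429. The work used 3 cell cultures in all, and which libraries share a culture is not labelled, so this test treats libraries as independent. Permuting only among libraries of the same replicate number gave an exact permutation p of 0.0556 (adjusted p = 0.222). The smallest p possible in that setting was 0.0278. On the log2 scale the difference was -0.54 for AA against CTR, -0.24 for IGF1 against CTR and -0.30 for AA against IGF1. The numerator is the entry whose own AA against CTR difference did not pass in limma (log2 fold change -0.70, adjusted p = 0.0575). For miR-26a the log2 fold change was -0.17, so the ratio largely restates the values of miR-26a-3-3p_1ss4GA and is not a separate result. Its p was adjusted over 4 ratios only, while limma p-values were adjusted over all entries tested.

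miR-26b relative to miR-26a was 22.4%, 22.3% and 19.7% in AA libraries, 21.3%, 19.4% and 23.3% in IGF1 libraries and 22.6%, 14.2% and 15.1% in CTR libraries. CTR replicate 1 lay with the AA and IGF1 libraries and the other CTR libraries lay below all of them. The mean was 21.5% ± 1.54 in AA, 21.3% ± 1.93 in IGF1 and 17.3% ± 4.63 in CTR, and the groups did not differ by the test (SD, n = 3 each, exact permutation p = 0.214, adjusted p = 0.214). Without CTR replicate 1, which left 2 CTR libraries, the exact permutation p was 0.0321 (adjusted p = 0.0429). Without CTR replicate 2 it was 0.646 and without CTR replicate 3 it was 0.571, so the outcome depended on which CTR library was left out.

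miR-26b-3p_2ss8TC10CG relative to miR-26b was 1.81%, 1.86% and 2.30% in AA libraries, 1.62%, 1.49% and 1.34% in IGF1 libraries and 1.55%, 2.42% and 2.35% in CTR libraries. AA lay above IGF1 throughout, and CTR replicate 1 again stood with the IGF1 libraries, away from the other CTR libraries. The mean was 1.99% ± 0.271 in AA, 1.48% ± 0.142 in IGF1 and 2.10% ± 0.485 in CTR (SD, n = 3 each, exact permutation p = 0.111, adjusted p = 0.214). Without CTR replicate 1, which left 2 CTR libraries, the exact permutation p was 0.0143 (adjusted p = 0.0286). Without CTR replicate 2 it was 0.168 and without CTR replicate 3 it was 0.175.

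**Figure D4:**
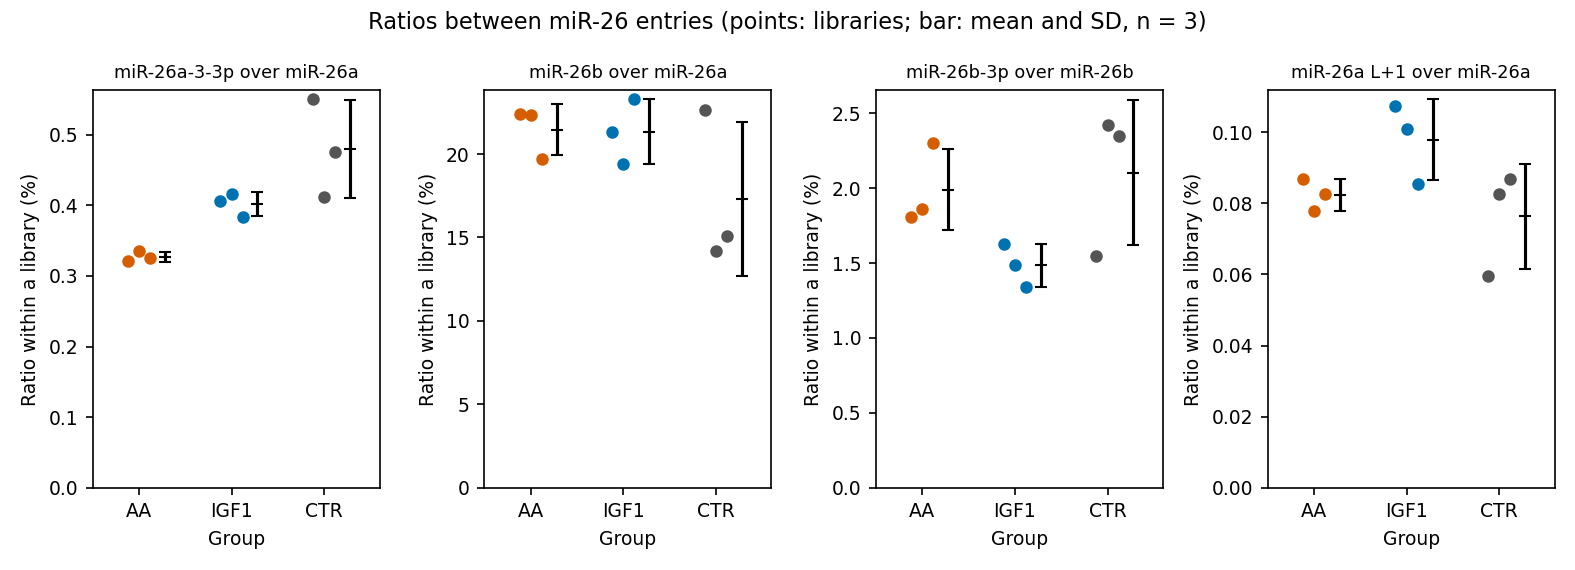
The 4 ratios between miR-26 members in percent, 1 point for each library, with the mean and SD of each group (n = 3) beside the points and vertical axes from 0. For miR-26a-3-3p_1ss4GA over miR-26a the AA libraries (0.321% to 0.335%) lie below all others. In the panels with miR-26b, CTR replicate 1 stands apart from the other CTR libraries.

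The forms with another 5′ or 3′ end made up a small part of the guides. The L+1 form of miR-26a, whose seed window is moved by 1 base, had 82.3, 74.9 and 70.6 normalized reads in AA libraries, 97.9, 111 and 81.2 in IGF1 libraries and 53.1, 89.4 and 99.1 in CTR libraries. This was 0.0824% ± 0.00451 of miR-26a in AA, 0.0979% ± 0.0114 in IGF1 and 0.0763% ± 0.0148 in CTR, a ratio that did not differ by the test (SD, n = 3 each, exact permutation p = 0.171, adjusted p = 0.214). The L+1 sequence was listed under both its names with equal values. Its inferred reads were fractions in some libraries, such as 106.5 in AA replicate 1. If reads were divided between both names, these levels and shares are understated, which was not tested.

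The extended form of miR-26b, miR-26a_R+1_1ss21CT, had 112, 112 and 86.3 normalized reads in AA libraries, 119, 122.1 and 160 in IGF1 libraries and 124.4, 79.0 and 69.8 in CTR libraries. All IGF1 libraries were above all AA libraries, and CTR replicate 1 was in the IGF1 range. Its log2 fold change for IGF1 against CTR was 0.58 (95% interval 0.02 to 1.14), with an unadjusted p of 0.0432 and an adjusted p of 0.450 in limma, which did not pass. As a share of miR-26b, a description chosen after the values were seen, it was 0.520% ± 0.00782 in AA, 0.635% ± 0.0786 in IGF1 and 0.511% ± 0.104 in CTR (SD, n = 3 each). The other 3′ extended form, miR-26b_R+1_1ss22TA, ran between 10.8 and 18.5 normalized reads in AA, between 7.02 and 37.1 in IGF1 and between 11.1 and 28.98 in CTR.

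The 4 rarer 3p sequences, each with a mean under 100 normalized reads in every group, did not pass the test in any comparison. mir-26a-4-p3 ran between 26.8 and 71.1 normalized reads in AA, between 54.4 and 86.0 in IGF1 and between 20.8 and 82.1 in CTR. miR-26a-2-3p ran between 47.9 and 64.9 in AA, between 47.4 and 53.3 in IGF1 and between 26.6 and 52.1 in CTR, with a log2 fold change of 0.55 for AA against CTR (95% interval -0.06 to 1.17, limma adjusted p = 0.347). miR-26a-3p and miR-26d_1ss21CT stayed between 9.66 and 29.1 normalized reads in all libraries, and the groups overlapped for each of these 4 sequences in each comparison. All 6 3p sequences together took 0.748% ± 0.0315 of the family's reads in AA, 0.716% ± 0.0436 in IGF1 and 0.805% ± 0.0510 in CTR (SD, n = 3 each).

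The remaining sequences, miR-26a-5p_L+1R-1_1 and miR-26a-5p_L+1R-1_2, were below the minimum for testing. They differ by C1G but had equal values in each library, listed at 0 in 5 of 9 libraries and at most 3.32 normalized reads elsewhere. Their inferred reads were fractions in some libraries, such as 3.5 in AA replicate 2. Whether both sequences were read, or the same reads were divided between both names, was not tested. A count of 0 allows up to 3 reads, between 2.32 and 3.62 normalized reads by library, for counting error only, so their levels could not be compared at this depth.

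Over the family, 11 of the 13 distinct sequences (12 of 14 entries) had at least 10 normalized reads in at least 3 libraries and were tested. The AA against CTR comparison sets DMEM, which holds amino acids, against the amino acid-free medium. In it, 0 of the 11 passed an adjusted p of 0.05 in limma, where 2.36% of all 594 entries tested did. At an unadjusted p under 0.05 there was 1 of 11, miR-26a-3-3p_1ss4GA, against 16.5% of all entries, and it was also the 1 member whose groups did not overlap, against 22.6% of all entries. With 11 members, counts of 1 are too few to set the family apart from these shares. Of the 11, 7 were higher and 4 lower in AA than in CTR without regard to a test, with a median log2 fold change of 0.13, against 0.08 over all entries. Of all 594 entries, 345 were higher in AA than in CTR.

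The IGF1 against CTR comparison sets the growth factor with its albumin carrier against the amino acid-free medium alone. In it, 0 of 11 passed the adjusted threshold in limma, as did 0% of all entries. At an unadjusted p under 0.05 there was 1 of 11, miR-26a_R+1_1ss21CT, against 10.3% of all entries. The groups did not overlap for 0 of 11, against 13.3% of all entries. The median log2 fold change was 0.26 over the members and 0.05 over all entries.

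For AA against IGF1, 0 of 11 passed the adjusted threshold in limma, against 0.842% of all entries, and 1 of 11, miR-26a-3-3p_1ss4GA, had an unadjusted p under 0.05, against 8.75% of all entries. The groups did not overlap for 3 of 11, against 15.3% of all entries: miR-26b-3p_2ss8TC10CG was higher in AA than in IGF1, and miR-26a-3-3p_1ss4GA and miR-26a_R+1_1ss21CT were lower. The median log2 fold change was -0.09 over the members, and the median of all entries was within 0.01 of 0.

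**Figure D5:**
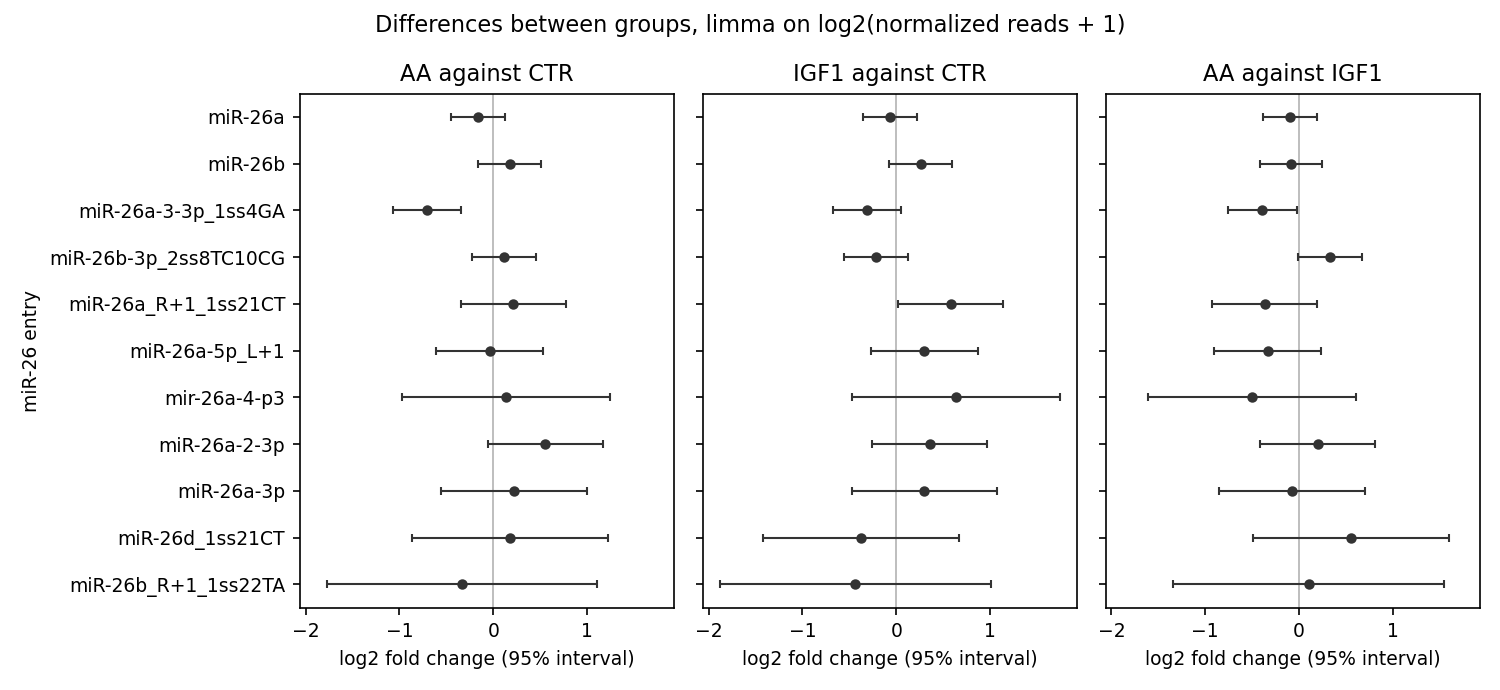
Log2 fold change with its 95% interval from limma for the 11 miR-26 sequences tested, 1 panel for each of the 3 comparisons. Intervals that exclude 0 before adjustment belong to miR-26a-3-3p_1ss4GA in AA against CTR (-1.07 to -0.34) and in AA against IGF1 (-0.76 to -0.03), and to miR-26a_R+1_1ss21CT in IGF1 against CTR (0.02 to 1.14). None passed after adjustment over all entries.

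As a description over the 9 libraries, which share group, depth and scaling, the sequences whose log2 values followed miR-26a most closely among the 554 outside the family were miR-10a (Pearson r = 0.92), let-7d (r = 0.90), miR-30a-4-3p (r = 0.85), miR-100 (r = 0.85) and the predicted candidate PC-3p-1292_3152 (r = 0.84). The median r over the 554 was -0.03, and the lowest was -0.93. Members of the family followed it less closely: r was 0.69 for the L+1 form, 0.67 for miR-26a-3-3p_1ss4GA, 0.55 for miR-26d_1ss21CT and 0.20 for miR-26b-3p_2ss8TC10CG. It was -0.22 for miR-26b, -0.37 for miR-26b_R+1_1ss22TA and -0.41 for miR-26a_R+1_1ss21CT, the members that share its seed. Members with other seeds had negative values too, -0.21 for miR-26a-3p and -0.30 for mir-26a-4-p3, while miR-26a-2-3p had 0.14. Apart from miR-26b, with a mean of 19490, these members had means of at most 398 normalized reads. The part of low read numbers in their r was not tested.

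Other miRNAs with known roles in muscle were counted for comparison, by their guide strands. Of the list of myogenesis miRNAs (miR-1, miR-206, miR-133, miR-499, miR-214, miR-24, miR-27, miR-29, miR-181 and miR-486), 36 of 36 guide sequences were tested. In AA against CTR 1 of them rose and 0 fell, where 2.36% of all entries passed: the guide of miR-1, which in mammals represses Hdac4 during muscle differentiation, whose log2 fold change was 0.96 with an SE of 0.13 (limma adjusted p = 0.00393). In AA against IGF1 the guide of miR-1 was again the 1 that rose (log2 fold change 0.90, limma adjusted p = 0.0168), where 0.842% of all entries passed, and in IGF1 against CTR 0 of 36 passed in limma. At an unadjusted p under 0.05 there were 4 of 36 in AA against CTR, 3 in IGF1 against CTR and 7 in AA against IGF1, where the shares over all entries were 16.5%, 10.3% and 8.75%. The list's median log2 fold change was 0.17 for AA against CTR, 0.18 for IGF1 against CTR and -0.14 for AA against IGF1, with 25, 22 and 12 of the 36 higher. Over all 594 entries the medians were 0.08, 0.05 and -0.00025, with 345, 325 and 297 higher.

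Sequences of the same miRNA numbers without the guide's seed, mostly the other strands, were counted apart after the values were seen, and 35 of 37 were tested. In AA against CTR 5 of them rose: miR-1-5p (log2 fold change 2.62), miR-133b-5p_1ss11TC (2.51), miR-133a-2-5p_R+1 (1.90), miR-181b-3p_R-1_2ss9TA11AG (1.82) and miR-206-5p_1ss17GC (1.48). In the same comparison 2 fell, mir-29d-p5 (-2.84) and mir-29a-1-p5 (-1.35), and the adjusted p of these 7 in limma was at most 0.00994. In AA against IGF1 2 rose, miR-181b-3p_R-1_2ss9TA11AG (1.76) and miR-133a-2-5p_R+1 (1.12), and in IGF1 against CTR 0 passed in limma. Over all entries tested, 2.36% passed in AA against CTR, 0.842% in AA against IGF1 and 0% in IGF1 against CTR. At an unadjusted p under 0.05 in limma there were 14 of 35 in AA against CTR, 7 in IGF1 against CTR and 10 in AA against IGF1. The shares over all entries were 16.5%, 10.3% and 8.75%.

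The list of other miRNAs tied to Ezh2 in mammals (miR-101, miR-214, miR-138 and miR-124) had 6 of 8 sequences tested. In limma 0 of the 6 passed in any comparison, with 0 at an unadjusted p under 0.05. Over all entries, 2.36% passed in AA against CTR, 0% in IGF1 against CTR and 0.842% in AA against IGF1. At an unadjusted p under 0.05 in limma these shares were 16.5%, 10.3% and 8.75%. With 6 sequences, counts of 0 are too few to set the list apart from them. The list's median log2 fold change was 0.19 for AA against CTR, 0.20 for IGF1 against CTR and -0.01 for AA against IGF1. Over all entries these medians were 0.08, 0.05 and -0.00025. Messenger RNA of Ezh2 or of the Smad genes was not analysed here.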

How the data were processed

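The authors prepared small RNA libraries of cells from 3 independent cultures in all, trimmed the single-end reads with their own scripts, kept unique sequences of 18 to 26 nt and assigned them by BLAST to miRBase precursors. The deposited table holds normalized reads, which are a signal for each entry in each library. How the reads were normalized is not given in the sources used here, and neither is the genome build. The authors' deposited p-value per entry over the 3 groups was not used, and neither were the means per group. The value of 1 read was inferred for each library from the steps between low values. By this measure 79.3% to 83.1% of a library's values under 150 normalized reads were whole within 0.02 reads, so whole reads were not recovered throughout and count models were not run.

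The 9 libraries were grouped by their labels, which do not say which libraries share a culture, and p-values therefore reflect only how far these libraries spread. The 594 of 862 entries that reached 10 normalized reads in 3 or more libraries entered limma 3.58.1 (R 4.3.3) as log2(normalized reads + 1), a scale that understates the change of low entries, with an intensity trend, all 9 libraries in 1 fit and no block. Two-sided p-values from limma were corrected by the Benjamini-Hochberg method over all 594, with a threshold of 0.05. Ratios within a library were tested by exact permutation in Python 3.11.15 (numpy 2.4.6, pandas 2.3.3). The tests were checked on simulated data. Alternatives covered the pseudocount, filter, scaling, trend, library weights, duplicate names, the replicate block, the libraries fitted and leaving out each library.

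Named miRNAs were all family members, the 5 outside sequences most like miR-26a in Pearson r, and list entries where 5 or fewer passed. Members and lists were chosen with earlier results of these data known. miRNA lists were matched by miRNA number and guide seed.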

Additional observations from a re-analysis of the deposited data

Results flagged for a closer look

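miR-26b-3p_2ss8TC10CG stood out because both treatments lay on opposite sides of the control: all 3 AA libraries (384 to 400 normalized reads) were above the CTR mean of 363 and all 3 IGF1 libraries (297 to 319) were below it. CTR libraries themselves spanned 313 to 403. The test of the difference, AA against IGF1, gave a log2 fold change of 0.33 (0.3307) with a limma adjusted p of 0.588, which did not pass. The groups had 3 libraries each, so single libraries were not tested as outlying.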

How the results depend on the processing

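Of 33 differences (11 sequences in 3 comparisons), 24 kept their sign under all 21 alternatives, and 1 passed the threshold under at least 1 of them: miR-26a-3-3p_1ss4GA in AA against CTR. It made the number of members past the threshold in that comparison 1 instead of 0 with libraries rescaled to the same total (adjusted p = 0.0391), with weights estimated per library (0.00599) and with the replicate block (0.0461), and leaving out single libraries gave 0 to 1. Its log2 fold change stayed between -0.79 and -0.64. Among the ratios, miR-26a-3-3p over miR-26a was not called when permuted within the replicate block (exact permutation p = 0.0556, adjusted p = 0.222). The smallest p the block allows is 0.0278, and the other ratios had an exact permutation p between 0.194 and 0.333 there. No adjusted p under 0.05 could therefore be reached for this ratio, and the block cannot decide the call. Leaving out single libraries gave an adjusted p from the exact permutation test between 0.0143 and 0.0571 for miR-26a-3-3p over miR-26a, between 0.0429 and 0.646 for miR-26b over miR-26a and between 0.0286 and 0.325 for miR-26b-3p over miR-26b. None of the differences that changed sign passed the test. Weights per library gave -0.2979 for miR-26d_1ss21CT and 0.01923 for miR-26b_R+1_1ss22TA in AA against CTR, and a pseudocount of 10 gave -0.01596 for miR-26b_R+1_1ss22TA in AA against IGF1. Leaving out single libraries gave, in AA against CTR, -0.309 to 0.1347 for miR-26a-5p_L+1, -0.3599 to 0.6067 for mir-26a-4-p3, -0.01015 to 0.4254 for miR-26a-3p, -0.317 to 0.4254 for miR-26d_1ss21CT and -0.6366 to 0.01932 for miR-26b_R+1_1ss22TA. It gave -0.1738 to 0.001834 for miR-26a in IGF1 against CTR. In AA against IGF1 it gave -0.1496 to 0.02669 for miR-26b, -0.3106 to 0.125 for miR-26a-3p and -0.2757 to 0.8486 for miR-26b_R+1_1ss22TA. The cause was not tested.

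Over all entries, the number past the threshold in AA against CTR was 104 with weights per library, 31 with the replicate block and 8 to 40 without single libraries, against 14. In IGF1 against CTR it was 5, 2 and 0 to 2, against 0, and in AA against IGF1 20, 10 and 1 to 13, against 5, with 1 when no intensity trend was fitted. Correlations of deviations between libraries of the same number ran from -0.12 to 0.396 over 9 pairs, against -0.38 to 0.26 over 18 other pairs. Since some pairs were under 0.1, the numbers were not taken to pair the libraries, although 8 of 9 libraries correlated best with 1 of their own number, a hint from the data and not the design. Requiring 10 normalized reads in all 9 libraries left no value for miR-26d_1ss21CT and miR-26b_R+1_1ss22TA. Depth limits the entries under 30 normalized reads most, where 3 reads are worth up to 3.62.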
